A study of Mus musculus with 12 samples.

Results

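The enzymes of glycolysis and of the citrate cycle were followed in 2 prostate lobes, ventral and lateral, of mice labelled Med1 knock out and of wild-type mice. Med1 is part of Mediator, which connects transcription factors with RNA polymerase II. The set was a fixed list of 52 genes, of which 49 had a probe set annotated to that gene alone, out of 18194 genes on the arrays. Each gene was read from its brightest probe set, by the mean of all 12 arrays. Gpi1, Pfkfb1 and Eno1 were not analysed here. The 49 genes were covered by 118 probe sets, 35 genes by more than 1. Total RNA was hybridised to 12 single-colour Affymetrix arrays, and the values are RMA signals on a log2 scale, so that a difference of 1 unit is a 2-fold change. The groups were ventral prostate labelled Med1 knock out, ventral prostate of wild type, lateral prostate labelled Med1 knock out and lateral prostate of wild type, with 3 arrays each. All mice were 16 weeks old. The strain, the deleted part of Med1, the promoter or cell type of any Cre driver and any pooling of animals are not stated in the labels. Whether arrays of 1 group stem from different mice is not stated either, so p-values reflect the spread among these arrays, which may be technical.

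Glycolysis splits glucose into pyruvate in the cytosol. Its flux is set at glucose uptake, at hexokinase and at phosphofructokinase, whose activator fructose 2,6-bisphosphate is made and removed by the Pfkfb enzymes. Pyruvate is either reduced to lactate by lactate dehydrogenase or enters mitochondria through the pyruvate dehydrogenase complex and meets oxaloacetate to form citrate. Prostate epithelium is known for accumulating and secreting citrate, and the epithelium of a normal prostate therefore oxidises less of it in the cycle than most tissues do.

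Med1 itself averaged 8.86 ± 0.16 log2 units in ventral knockout and 9.43 ± 0.12 in ventral wild type (SD, n = 3 each). It was changed, at -0.57 ± 0.12 SE (limma adjusted p = 0.0119), with no overlap of the arrays. In the lateral lobe it averaged 8.39 ± 0.049 in the arrays labelled knockout and 8.52 ± 0.26 in wild type (SD, n = 3 each), which is -0.13 ± 0.12 SE (limma adjusted p = 0.622). Of the 7 Med1 probe sets, 7 were lower in ventral knockout and 4 passed, while 4 were above 0 in the lateral lobe and 0 passed. The lateral group is called labelled knockout throughout. Array medians lay between 6.39 and 6.43 in the ventral lobe and between 6.05 and 6.06 in the lateral lobe. The luminal markers Krt8, Krt18, Krt19, Cdh1, Epcam, Foxa1 and Hoxb13 were above the low-signal mark in all groups, which is the lower quartile of all probe sets (4.73 in ventral and 4.52 in lateral arrays). None of the 49 genes fell below that mark in any group. Seminal vesicle transcripts set 2 arrays apart. The mean of 6 seminal vesicle markers was 5.52 in WT_VP replicate 3, against 3.81 and 3.89 in the other ventral wild-type arrays, and 7.73 in KO_LP replicate 3, against 9.26 and 9.09 in the other lateral arrays labelled knockout. KO_VP replicate 3 stood apart by a sign of RNA quality. There the Gapdh control probe set for the 3′ end read 2.62 log2 units above that for the middle of the transcript and 2.67 above that for the 5′ end, against 1.34 to 1.67 and 1.87 to 2.22 on the other 5 ventral arrays. Tests of the 49 genes were repeated with each array left out, and several ventral values are also given without KO_VP replicate 3. Marker lists, genes outside the 49 and further probe sets are given with all arrays.

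Of the 49 genes, 14 passed a Benjamini-Hochberg adjusted p of 0.05 in limma in 1 comparison or more and 35 in none. Of all genes, 9.08% passed in the ventral comparison, 5.03% in the lateral comparison and 9.31% in the difference between lobes. The share of all genes that passed in 1 or more is not given, so the 14 are not set against it. Pfkfb3, Slc2a3, Hk2 and Ldhb carried the changes that held under each alternative tried, and RefSeq (GRCm38.p6) start-site windows were at hand for 3 of them, with none for Slc2a3. The windows run from 250 bases before to 50 after the start, on the minus strand in each case, at chr2:11553880-11554179 and chr2:11502041-11502340 for the 2 start sites of Pfkfb3, chr6:82774405-82774704 for Hk2 and chr6:142507908-142508207 for Ldhb. They are shown because these genes carried the firmest changes in lateral prostate. Capitals mark the core of the hypoxia response element (ACGTG or GCGTG) and the nuclear receptor half-site (AGGTCA), on either strand.
Pfkfb3, upstream start site: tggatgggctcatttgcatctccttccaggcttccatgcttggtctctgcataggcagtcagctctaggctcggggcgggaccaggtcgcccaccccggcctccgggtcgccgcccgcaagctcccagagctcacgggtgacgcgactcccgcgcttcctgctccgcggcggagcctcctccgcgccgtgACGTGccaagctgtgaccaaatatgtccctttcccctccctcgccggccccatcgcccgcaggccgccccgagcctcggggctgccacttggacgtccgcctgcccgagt
Pfkfb3, downstream start site: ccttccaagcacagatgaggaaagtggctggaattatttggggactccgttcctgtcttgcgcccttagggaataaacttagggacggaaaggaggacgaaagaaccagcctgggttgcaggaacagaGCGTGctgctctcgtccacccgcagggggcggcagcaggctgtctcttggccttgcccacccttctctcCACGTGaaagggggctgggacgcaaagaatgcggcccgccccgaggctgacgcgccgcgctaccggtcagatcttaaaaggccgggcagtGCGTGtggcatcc
Hk2: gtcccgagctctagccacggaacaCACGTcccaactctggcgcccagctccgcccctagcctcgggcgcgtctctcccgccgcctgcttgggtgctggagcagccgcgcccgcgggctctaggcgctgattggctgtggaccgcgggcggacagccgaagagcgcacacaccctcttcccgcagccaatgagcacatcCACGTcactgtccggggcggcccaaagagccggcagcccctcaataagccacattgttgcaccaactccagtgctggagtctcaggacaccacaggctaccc
Ldhb: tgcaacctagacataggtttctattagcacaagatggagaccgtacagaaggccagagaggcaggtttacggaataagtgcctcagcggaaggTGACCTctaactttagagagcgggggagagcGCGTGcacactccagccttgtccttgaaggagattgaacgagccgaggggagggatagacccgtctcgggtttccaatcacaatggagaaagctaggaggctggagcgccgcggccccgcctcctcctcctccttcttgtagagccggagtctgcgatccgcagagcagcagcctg
The downstream Pfkfb3 window held 4 matches to the hypoxia core, of which 2 are the overlapping strands of CACGTG, and the upstream window held 1. Hk2 held 2, and Ldhb held 1 beside a single AGGTCA on the reverse strand. The androgen receptor half-site AGAACA was in none of these 4 windows. Among all 32851 windows of this length, 43.8% held a hypoxia core, 16.3% an AGGTCA and 19.0% an AGAACA, so a match describes these letters and nothing more.

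The lateral comparison asks how the arrays labelled knockout differed from wild type in lateral prostate. There 4 genes fell, Pfkfb3, Slc2a3, Eno2 and Ldhb, and 2 rose, Hk2 and Suclg2. That is 6 of 49 (12.2%), against 5.03% of all genes tested in this lobe (1.62% higher and 3.42% lower). At an adjusted p under 0.01 it was 4, against 2.18% of all genes. The arrays of 3 members did not overlap upward and those of 19 downward, against 11.2% and 15.7% of all genes (26.9% in either direction). As deposited 9 of 49 lay above 0, against 49.4% of all genes and 38.6% of the brighter genes (the dimmest 40% set aside). After quantile normalization over all arrays 20 of 49 did, and the median moved from -0.09 to -0.05. After median centring 9 of 49 lay above 0. The downward lean of the members thus depended in part on which scaling was used. Pfkfb3 and Slc2a3 were the 2 members that changed at least 2-fold.

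Pfkfb3 makes fructose 2,6-bisphosphate and so raises phosphofructokinase activity. It read 6.92, 6.38 and 6.59 in the lateral arrays labelled knockout, against 9.76, 9.60 and 9.72 in lateral wild type. The groups lay far apart, with every array labelled knockout below every wild-type array. The difference was -3.06 ± 0.13 (SE; limma adjusted p = 4.00e-09), an 8.36-fold lower signal. The other Pfkfb3 probe set read 6.13, 6.22 and 5.58 in the arrays labelled knockout, against 10.07, 9.94 and 10.22 in wild type, a 17.1-fold lower signal. In ventral prostate Pfkfb3 averaged 6.96 ± 0.11 in knockout and 7.13 ± 0.14 in wild type (SD, n = 3 each), a difference of -0.17 with a 95% interval from -0.44 to 0.10 (limma adjusted p = 0.430). Without KO_VP replicate 3 it was -0.23 (limma adjusted p = 0.395). The other probe set read 6.03, 6.23 and 6.14 in ventral knockout, against 6.56, 6.34 and 6.48 in ventral wild type, with no overlap. Both sets were below 0 in ventral prostate, and 0 passed. In these bulk samples, fewer cells of a type and less RNA per cell cannot be told apart.

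The sister isoforms had other values. Pfkfb2, the isoform known from heart, differed by 0.14 in lateral prostate (limma adjusted p = 0.472) and Pfkfb4, known from testis, by 0.07 (limma adjusted p = 0.676). The lateral fall in this enzyme family was seen in Pfkfb3 alone of the 3 isoforms measured, and no test set the isoforms against each other.

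Slc2a3 encodes GLUT3, a high-affinity glucose transporter. Its signal was 6.55, 6.29 and 6.83 in the lateral arrays labelled knockout, against 7.34, 7.62 and 7.72 in lateral wild type, with no overlap. It fell by 1.00 ± 0.14 (SE; limma adjusted p = 7.11e-04). All 4 Slc2a3 probe sets were lower, and 2 of them passed. The brightest set carries the suffix by which Affymetrix marks probes that may match other transcripts, so part of its signal could come from elsewhere. Slc2a1 (GLUT1), the broadly expressed transporter, averaged 10.01 ± 0.14 in the lateral arrays labelled knockout and 10.50 ± 0.056 in wild type (SD, n = 3 each). That difference of -0.49 did not pass (limma adjusted p = 0.0584). When every probe set was tested, 2 of its 3 passed as lower and the brightest was the one that did not.

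Hk2, the inducible hexokinase that traps glucose in the cell, moved the other way. It read 8.08, 8.28 and 8.05 in the lateral arrays labelled knockout, against 7.39, 7.14 and 7.58 in lateral wild type. Each array labelled knockout was above each wild-type array, and the rise was 0.76 ± 0.11 (SE; limma adjusted p = 8.92e-04), or 1.70-fold. In ventral prostate Hk2 read 10.28, 10.20 and 10.28 in knockout, against 10.36, 10.20 and 10.20 in wild type. The ventral genotypes overlapped, with a 95% interval of the difference from -0.24 to 0.24. The housekeeping isoform Hk1 differed by -0.15 in lateral (limma adjusted p = 0.519) and by 0.28 in ventral prostate (limma adjusted p = 0.143), at 0.15 without KO_VP replicate 3. Its second probe set gave -0.42 in lateral and -0.35 in ventral prostate without passing (limma adjusted p = 0.198 and 0.226), with KO_VP replicate 3 the lowest ventral array. The ventral sign of Hk1 therefore depended on the probe set.

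**Figure D1:**
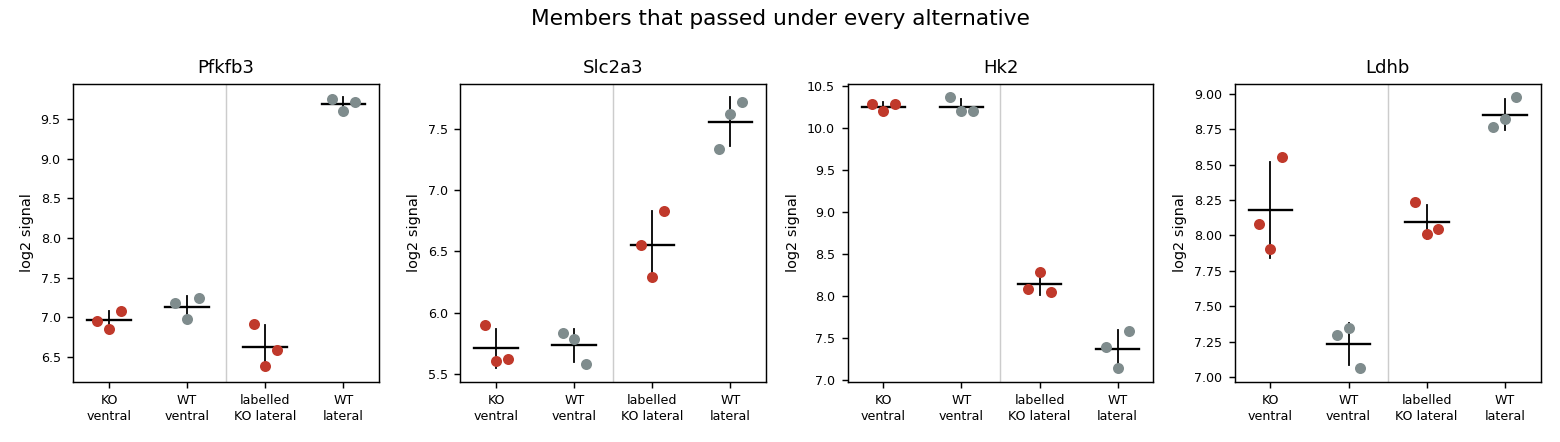
Log2 signal (vertical axis) of Pfkfb3, Slc2a3, Hk2 and Ldhb on each of the 12 arrays, in the order ventral knockout, ventral wild type, lateral labelled knockout and lateral wild type. Points are arrays, horizontal lines are means and vertical lines are SD (n = 3). Pfkfb3 lies between 6.38 and 6.92 in the lateral arrays labelled knockout and between 9.60 and 9.76 in lateral wild type, while Ldhb is higher in knockout than in wild type in the ventral lobe and lower in the lateral lobe.

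Ldhb, the lactate dehydrogenase subunit that favours oxidation of lactate to pyruvate, was the only member that passed in both lobes, and it did so in opposite directions. In ventral prostate it read 8.08, 7.90 and 8.56 in knockout, against 7.29, 7.34 and 7.06 in wild type. The ventral rise was 0.95 ± 0.14 (SE; limma adjusted p = 0.00107), or 1.93-fold, with no overlap. The size depended on the probe set, with 0.31, 0.53 and 0.39 from the other 3 sets and 0.54 from the mean of all 4. Without KO_VP replicate 3, the highest array, it was 0.76 (limma adjusted p = 0.00211). In lateral prostate it read 8.23, 8.01 and 8.04 in the arrays labelled knockout, against 8.76, 8.82 and 8.97 in wild type. The lateral fall was -0.76 ± 0.14 (SE; limma adjusted p = 0.00682), a 1.69-fold lower signal. The lobes differed in this change by -1.70 ± 0.20 (SE; limma adjusted p = 1.93e-04). All 4 Ldhb probe sets were above 0 in ventral and below 0 in lateral prostate, and 2 and 4 of them passed when every probe set was tested. Ldha, the subunit that favours lactate production, differed by -0.17 in ventral (95% interval -0.36 to 0.02; limma adjusted p = 0.254) and by 0.01 in lateral prostate (95% interval -0.18 to 0.21; limma adjusted p = 0.952).

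Markers of stroma moved the same way as Ldhb. Of 8 smooth muscle markers, 6 passed as higher in ventral knockout and 0 as lower, and 3 passed as lower in the lateral arrays labelled knockout and 0 as higher. Their mean signal lay between 10.53 and 10.77 in ventral knockout, against 10.01 to 10.24 in ventral wild type. It lay between 10.88 and 11.14 in the lateral arrays labelled knockout, against 11.34 to 11.47 in lateral wild type. Of 7 fibroblast markers, 5 passed as higher in ventral knockout and 4 as lower in the lateral arrays labelled knockout. The fibroblast mean lay between 9.38 and 9.51 in ventral knockout, against 8.83 to 9.12 in ventral wild type. It was 8.64 to 8.89 in the lateral arrays labelled knockout, against 9.18 to 9.29 in lateral wild type. Of 6 basal epithelial markers, 2 passed as lower in the lateral lobe. Their mean was 8.03 to 8.12 in the arrays labelled knockout, against 8.27 to 8.45 in lateral wild type, and 7.46 to 7.57 in ventral knockout, against 7.27 to 7.37 in ventral wild type. The 7 luminal markers averaged 12.30 to 12.33 in ventral knockout, against 12.22 to 12.31 in ventral wild type, and 11.47 to 11.55 in the lateral arrays labelled knockout, against 11.46 to 11.54 in lateral wild type. In limma 0 of them passed in either lobe, and at an unadjusted p under 0.05 1 was higher and 1 lower in ventral and 1 higher in lateral prostate. None of the smooth muscle, fibroblast, basal or luminal markers was below the low-signal mark in any group. The part of these cell types in the changes of Ldhb was not tested.

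Seminal vesicle genes fell in the lateral lobe beside the falls of Pfkfb3 and Slc2a3 and the rise of Hk2. Of 6, 4 passed as lower in the arrays labelled knockout, and their mean lay between 7.73 and 9.26 there, against 11.41 to 11.50 in lateral wild type. In the ventral lobe the mean was 4.25 to 4.60 in knockout and 3.81 to 5.52 in wild type, and 5 of the 6 (Svs2, Svs3a, Svs4, Svs6 and Pate4) were low in both ventral groups. KO_LP replicate 3, with the lowest seminal vesicle mean, held the middle value for Pfkfb3 (6.59) and the highest for Slc2a3 (6.83) among the arrays labelled knockout. With each of the 12 arrays left out in turn, the lateral difference of Pfkfb3 ranged from -3.21 to -2.94, that of Slc2a3 from -1.14 to -0.87 and that of Hk2 from 0.65 to 0.87. Each of these passed every time, with limma adjusted p up to 1.19e-07, 0.00521 and 0.00678. The part of seminal vesicle tissue in these changes was not tested.

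**Figure D2:**
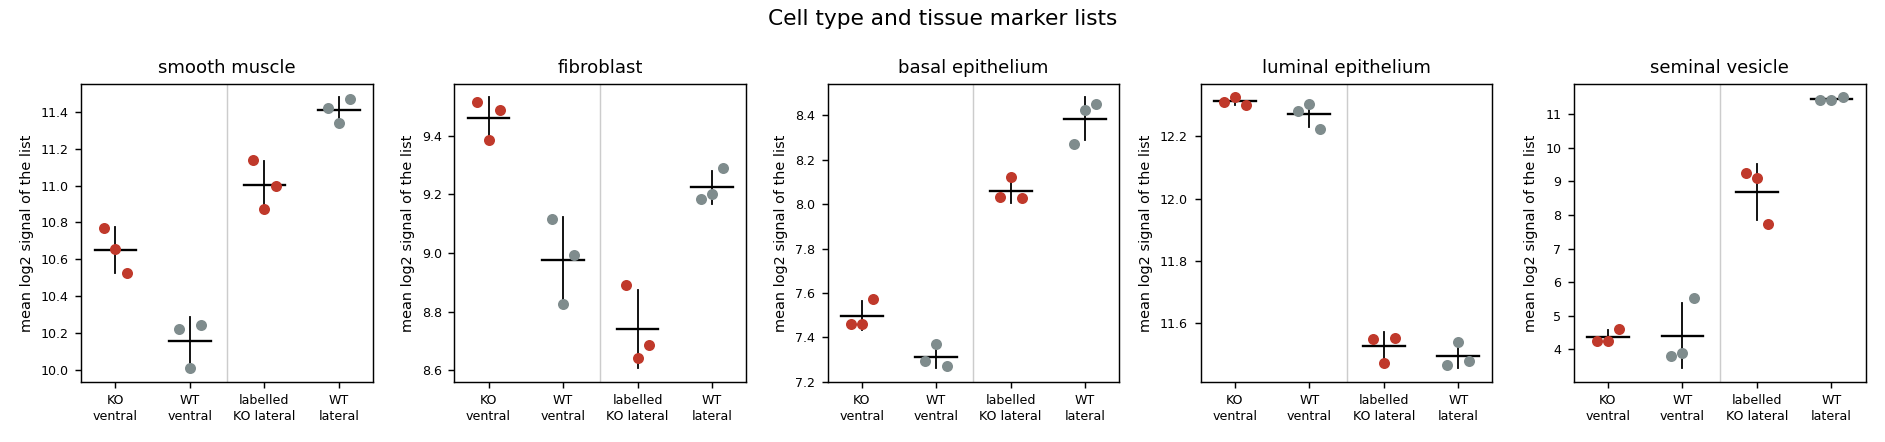
Mean log2 signal of the smooth muscle, fibroblast, basal, luminal and seminal vesicle marker lists on each array (vertical axis), by group. Points are arrays, horizontal lines are means and vertical lines are SD (n = 3). The smooth muscle and fibroblast means are higher in ventral knockout than in ventral wild type and lower in the lateral arrays labelled knockout than in lateral wild type. The seminal vesicle mean lies between 7.73 and 9.26 in the lateral arrays labelled knockout and between 11.41 and 11.50 in lateral wild type.

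The 2 remaining lateral calls were less firm. Eno2, the neuronal enolase, read 5.73, 5.59 and 5.60 in the arrays labelled knockout, against 6.64, 6.25 and 6.62 in wild type, a difference of -0.87 ± 0.23 (SE; limma adjusted p = 0.0414). Suclg2, the GTP-forming subunit of succinyl-CoA synthetase, read 9.07, 9.10 and 9.26 in the arrays labelled knockout, against 8.70, 8.89 and 8.66 in wild type. It was higher by 0.39 ± 0.10 (SE; limma adjusted p = 0.0440). The groups of both genes did not overlap. The Eno2 call remained only without WT_VP replicate 2, KO_VP replicate 2 or KO_VP replicate 3, and was lost with any other array left out (limma adjusted p up to 0.142, at -0.81 without WT_LP replicate 3). The Suclg2 call remained only without WT_LP replicate 2 or 1 of the 3 ventral knockout arrays (limma adjusted p up to 0.173 otherwise, at 0.35 without WT_LP replicate 3). Of 3 nerve and Schwann cell markers measured, Mbp passed as lower in the lateral lobe (-0.40) and S100b and Sox10 did not. The list mean was 6.67 to 6.69 in the arrays labelled knockout, against 6.70 to 6.87 in lateral wild type, and its part in the Eno2 values was not tested.

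The ventral comparison asks how knockout differed from wild type in ventral prostate. There 6 members rose, Ldhb, Pdk4, Pfkp, Pdha1, Pfkfb4 and Pkm, and 2 fell, Pfkfb2 and Pgam2. That is 8 of 49 (16.3%), against 9.08% of all genes tested in this lobe, and 0 members changed by 2-fold or more. Over all genes 5.88% rose and 3.2% fell. At an adjusted p under 0.01 it was 1 member, against 3.66% of all genes. The arrays of 19 members did not overlap upward and those of 7 downward, against 14.9% and 14.6% of all genes (29.5% in either direction). The count was 2 without WT_VP replicate 2 or without WT_VP replicate 3. It was 4 without WT_VP replicate 1, KO_VP replicate 1, WT_LP replicate 1 or WT_LP replicate 3, and 5 without WT_LP replicate 2 or KO_LP replicate 3. It was 3 when the ventral arrays were fitted alone. Without KO_VP replicate 3 it was 6, of which 5 were shared with the 8 and the other was Me1. The share of all genes that passed in each of these settings is not given, so these counts are not set against it. Ldhb was the 1 ventral call that held with each array left out.

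Pdk4, a kinase that switches off pyruvate dehydrogenase and is known to respond to fasting and fatty acids, read 6.28, 6.75 and 6.59 in ventral knockout, against 5.78, 5.45 and 5.96 in ventral wild type. Each knockout array was above each wild-type array, and the rise was 0.81 ± 0.18 (SE; limma adjusted p = 0.0123). Without WT_VP replicate 2 it was 0.67 and did not pass (limma adjusted p = 0.0523). In lateral prostate Pdk4 differed by -0.25 (limma adjusted p = 0.476), and the lobes differed by -1.06 ± 0.25 (SE; limma adjusted p = 0.0182), which was lost without KO_LP replicate 2 (-0.996; limma adjusted p = 0.0516).

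Pdha1, the catalytic E1 alpha subunit of pyruvate dehydrogenase, read 10.50, 10.49 and 10.55 in ventral knockout, against 10.22, 10.26 and 10.12 in ventral wild type. It was higher by 0.32 ± 0.074 (SE; limma adjusted p = 0.0174), and without WT_VP replicate 3 the difference of 0.27 did not pass (limma adjusted p = 0.0812). Its second probe set differed by 0.066. In lateral prostate Pdha1 read 9.64, 9.67 and 9.61 in the arrays labelled knockout, against 9.80, 9.85 and 9.85 in wild type. The lateral groups did not overlap, though the difference of -0.19 did not pass (limma adjusted p = 0.167), and the lobes differed by -0.51 ± 0.11 (SE; limma adjusted p = 0.00798). The E1 beta subunit Pdhb differed by 0.12 in ventral (limma adjusted p = 0.444) and the E2 subunit Dlat by 0.27 (limma adjusted p = 0.0987).

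Pfkp, the platelet-type phosphofructokinase, read 7.68, 7.76 and 7.85 in ventral knockout, against 7.42, 7.18 and 7.30 in ventral wild type, a rise of 0.46 ± 0.12 (SE; limma adjusted p = 0.0246). The genotypes did not overlap. It lost the call without WT_VP replicate 2 (0.40), WT_VP replicate 3 (0.46) or KO_VP replicate 3 (0.42), with limma adjusted p up to 0.0851. All 3 Pfkp probe sets were above 0, and 1 passed when every probe set was tested. The smallest estimate over all alternatives was 0.27. The liver and muscle isoforms Pfkl and Pfkm differed by -0.34 and -0.19 without passing (limma adjusted p = 0.162 and 0.414), at -0.17 and -0.04 without KO_VP replicate 3.

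Pkm, the pyruvate kinase gene of most tissues, read 11.42, 11.45 and 11.37 in ventral knockout, against 11.12, 11.14 and 11.17 in ventral wild type. This is a small shift with narrow spread, 0.27 ± 0.075 (SE; limma adjusted p = 0.0390). In lateral prostate it read 11.07, 10.94 and 11.00 in the arrays labelled knockout, against 10.80, 10.75 and 10.69 in wild type, again with no overlap. The lateral difference of 0.25 ± 0.075 (SE) did not pass (limma adjusted p = 0.0704), and no difference between the lobes was detected (-0.02; limma adjusted p = 0.943). Pfkfb4 read 8.27, 8.23 and 8.15 in ventral knockout, against 8.01, 7.91 and 7.86 in ventral wild type (0.29 ± 0.082, SE; limma adjusted p = 0.0404).

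Pfkfb2 read 9.59, 9.68 and 9.31 in ventral knockout, against 9.94, 9.85 and 9.83 in ventral wild type, a difference of -0.35 ± 0.10 (SE; limma adjusted p = 0.0477). Pgam2, the muscle phosphoglycerate mutase, read 6.06, 6.10 and 5.67 in ventral knockout, against 6.28, 6.47 and 6.32 in ventral wild type (-0.41 ± 0.12, SE; limma adjusted p = 0.0498). KO_VP replicate 3, the array with the wide Gapdh gaps between 3′ and 5′ probe sets, was the lowest for both. Without it the differences were -0.24 and -0.28 and neither passed (limma adjusted p = 0.153 and 0.171). The part of RNA quality in these values was not tested. Neither genotype pair overlapped. Pkm passed with 3 of the 12 arrays left out in turn, Pfkfb4 with 4, and Pfkfb2 and Pgam2 with 2 each, with limma adjusted p up to 0.115, 0.142, 0.153 and 0.171. Of 7 skeletal muscle markers, 3 passed as lower in ventral knockout (Myh4, Tnnt3 and Ckm) and Tnnc2 as higher. The list mean was 6.22 to 6.44 in ventral knockout, against 6.48 to 6.71 in ventral wild type, with Pvalb low in both groups and Tnnt3 low in knockout, and its part in the Pgam2 value was not tested.

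**Figure D3:**
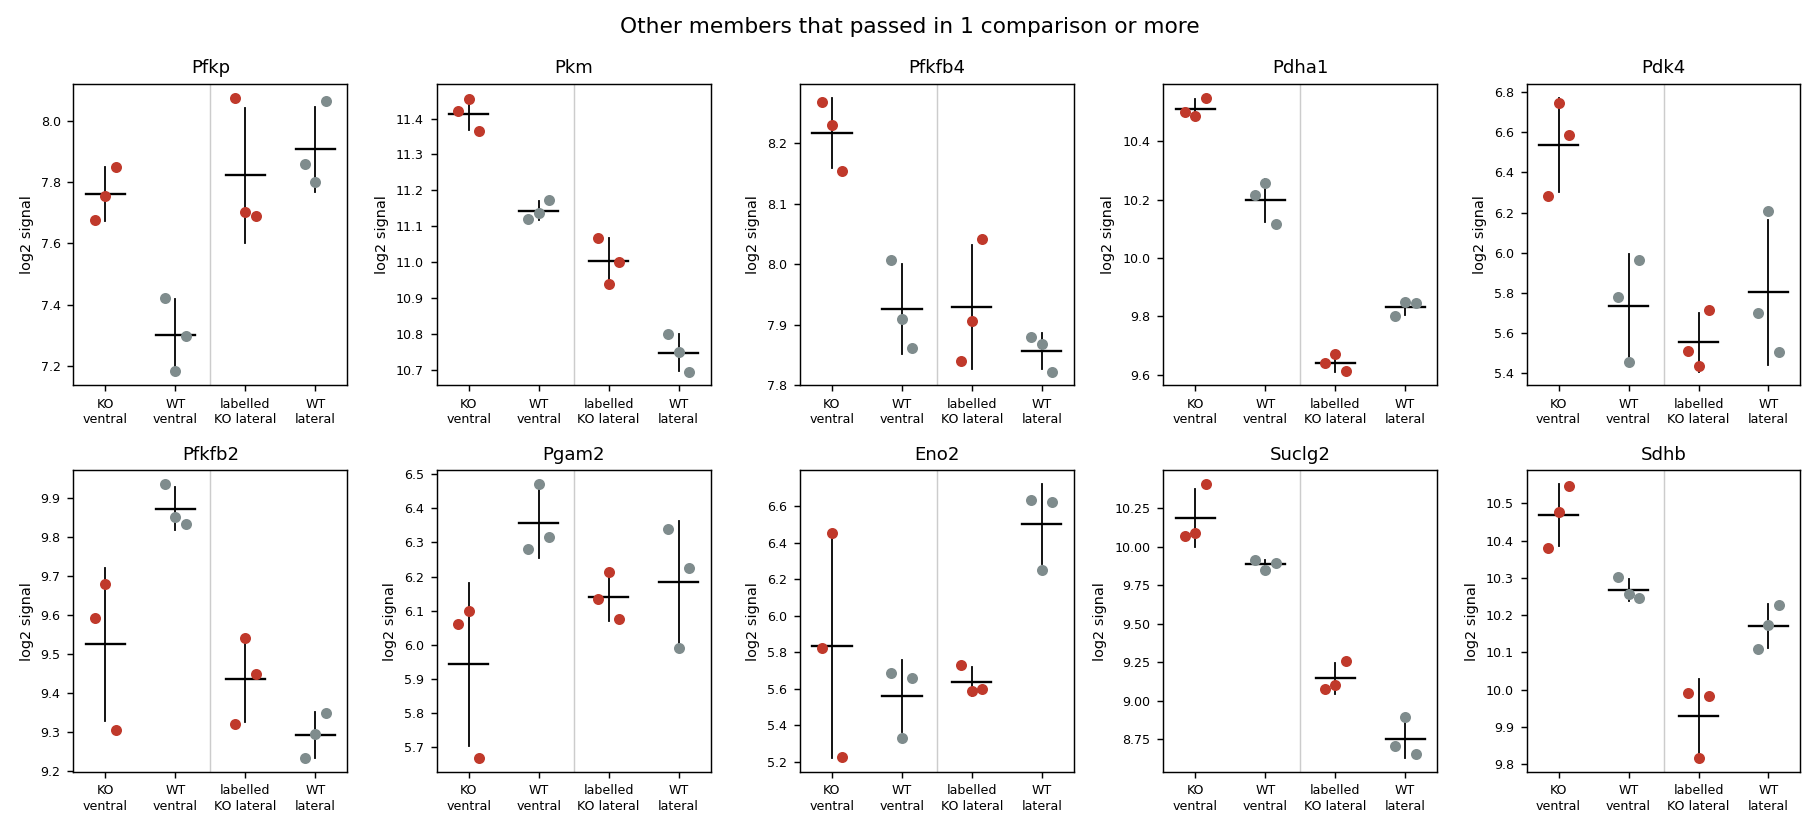
Log2 signal (vertical axis) of the other 10 members that passed in the ventral comparison, the lateral comparison or the difference between lobes, on each array by group. Points are arrays, horizontal lines are means and vertical lines are SD (n = 3). KO_VP replicate 3 (the right-hand point of its group) is the lowest ventral array for Pfkfb2 and Pgam2.

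Other members from aldolase to phosphoglycerate mutase did not pass in either lobe. Aldoa, Aldoc and Tpi1 differed by 0.01 to 0.06 in ventral and by -0.15 to -0.12 in lateral prostate. Gapdh averaged 12.80 ± 0.056 in ventral knockout and 12.83 ± 0.036 in ventral wild type (SD, n = 3 each), a difference of -0.02 with a 95% interval from -0.18 to 0.13. This is the 3′ probe set, and the 5′ and middle sets gave -0.38 and -0.55 in ventral prostate without passing (limma adjusted p = 0.150 and 0.163), with KO_VP replicate 3 lowest. In lateral prostate it averaged 12.44 ± 0.040 in the arrays labelled knockout and 12.54 ± 0.028 in wild type (SD, n = 3 each), a difference of -0.10 with a 95% interval from -0.26 to 0.06. Pgk1 differed by -0.23 and -0.20 in ventral and lateral prostate (limma adjusted p = 0.152 and 0.269), and Pgam1 by -0.19 and -0.03. Over the 21 members for uptake, glycolysis and lactate, 4 rose and 2 fell in ventral prostate and 1 rose and 4 fell in lateral prostate, against 5.88% and 3.2% of all genes in ventral and 1.62% and 3.42% in lateral prostate. Their median difference was -0.03 in ventral and -0.12 in lateral prostate, where the medians over all genes were -0.02 and -0.0025.

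Around pyruvate, Pdk1 differed by -0.13 in ventral and -0.34 in lateral prostate (limma adjusted p = 0.495 and 0.105), and all 4 of its probe sets were below 0 in both lobes. When every probe set was tested, 1 of them passed in ventral and 2 in lateral prostate. It averaged 8.02 ± 0.27 in the lateral arrays labelled knockout and 8.36 ± 0.0075 in lateral wild type (SD, n = 3 each). Pdk2 differed by -0.27 and -0.09. Pcx, pyruvate carboxylase, which refills oxaloacetate, differed by 0.29 in ventral (limma adjusted p = 0.102) and by -0.09 in lateral prostate. Slc25a1, the mitochondrial citrate exporter, differed by -0.21 and -0.03, and malic enzyme Me1 by -0.26 and -0.21, with no overlap of the genotypes for Me1 in either lobe (limma adjusted p = 0.0804 in ventral and 0.195 in lateral). Without KO_VP replicate 3 the ventral difference of Me1 was -0.34 and passed (limma adjusted p = 0.0179), that of Slc25a1 was -0.04 and that of Pdk2 -0.11.

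The 19 citrate cycle members changed little one by one. In ventral prostate 0 passed in limma in either direction. At an unadjusted p under 0.05, a level for which no share of all genes is given, 5 were higher and 0 lower. Yet 18 of 19 lay above 0, all but Ogdh, where 45.9% of all genes and 52.7% of the brighter genes (the dimmest 40% set aside) did. The median was 0.16, and the arrays of 10 members did not overlap in the upward direction, against 14.9% of all genes, with 0 in the downward direction. Aco1 had the largest of these differences (0.36; limma adjusted p = 0.180), followed by Suclg2 (0.30), citrate synthase Cs (0.25), Sdha (0.22) and Idh3a (0.21). Sizes and order rested in part on KO_VP replicate 3. Without it Idh3a was the largest (0.26), and Aco1 was 0.18, Suclg2 0.20 and Cs 0.13, with a median of 0.12 over the 19. Still 18 of 19 lay above 0, and 10 did not overlap upward. With fewer knockout arrays non-overlap is easier to reach, and no share of all genes is given for this setting. The sign held for 18 of 19 after quantile normalization over all arrays and after median centring, and for 16 of 19 with the mean of all probe sets. Sizes, and for some genes the sign, varied with the probe set. The other sets gave 0.016 and -0.078 for Cs, 0.17 and 0.024 for Aco1, and 0.71, 0.41 and 0.16 for Idh3a. The second Idh2 set gave -0.46 without passing (limma adjusted p = 0.0715). It read 7.99, 7.89 and 7.54 in ventral knockout, against 8.56, 8.14 and 8.11 in ventral wild type, with no overlap. For Sdha 2 of 4 probe sets were below 0, and for Sucla2 2 of 3. KO_VP replicate 1 was the highest array for the 0.71 and 0.41 of Idh3a.

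In lateral prostate 1 of the 19 rose, Suclg2, and 0 fell, against 1.62% and 3.42% of all genes. At an unadjusted p under 0.05, again without a share of all genes, 1 was higher and 5 were lower. As deposited 3 of 19 lay above 0, against 49.4% of all genes and 38.6% of the brighter genes, with a median of -0.07. After quantile normalization over all arrays 10 of 19 lay above 0, and after median centring 3 of 19 did. The lateral direction of these genes thus depended on which scaling was used, and no share of all genes is given after either. The lowest lateral values were those of Sdhb, Idh1 and Idh2, at -0.24, -0.24 and -0.21 as deposited.

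**Figure D4:**
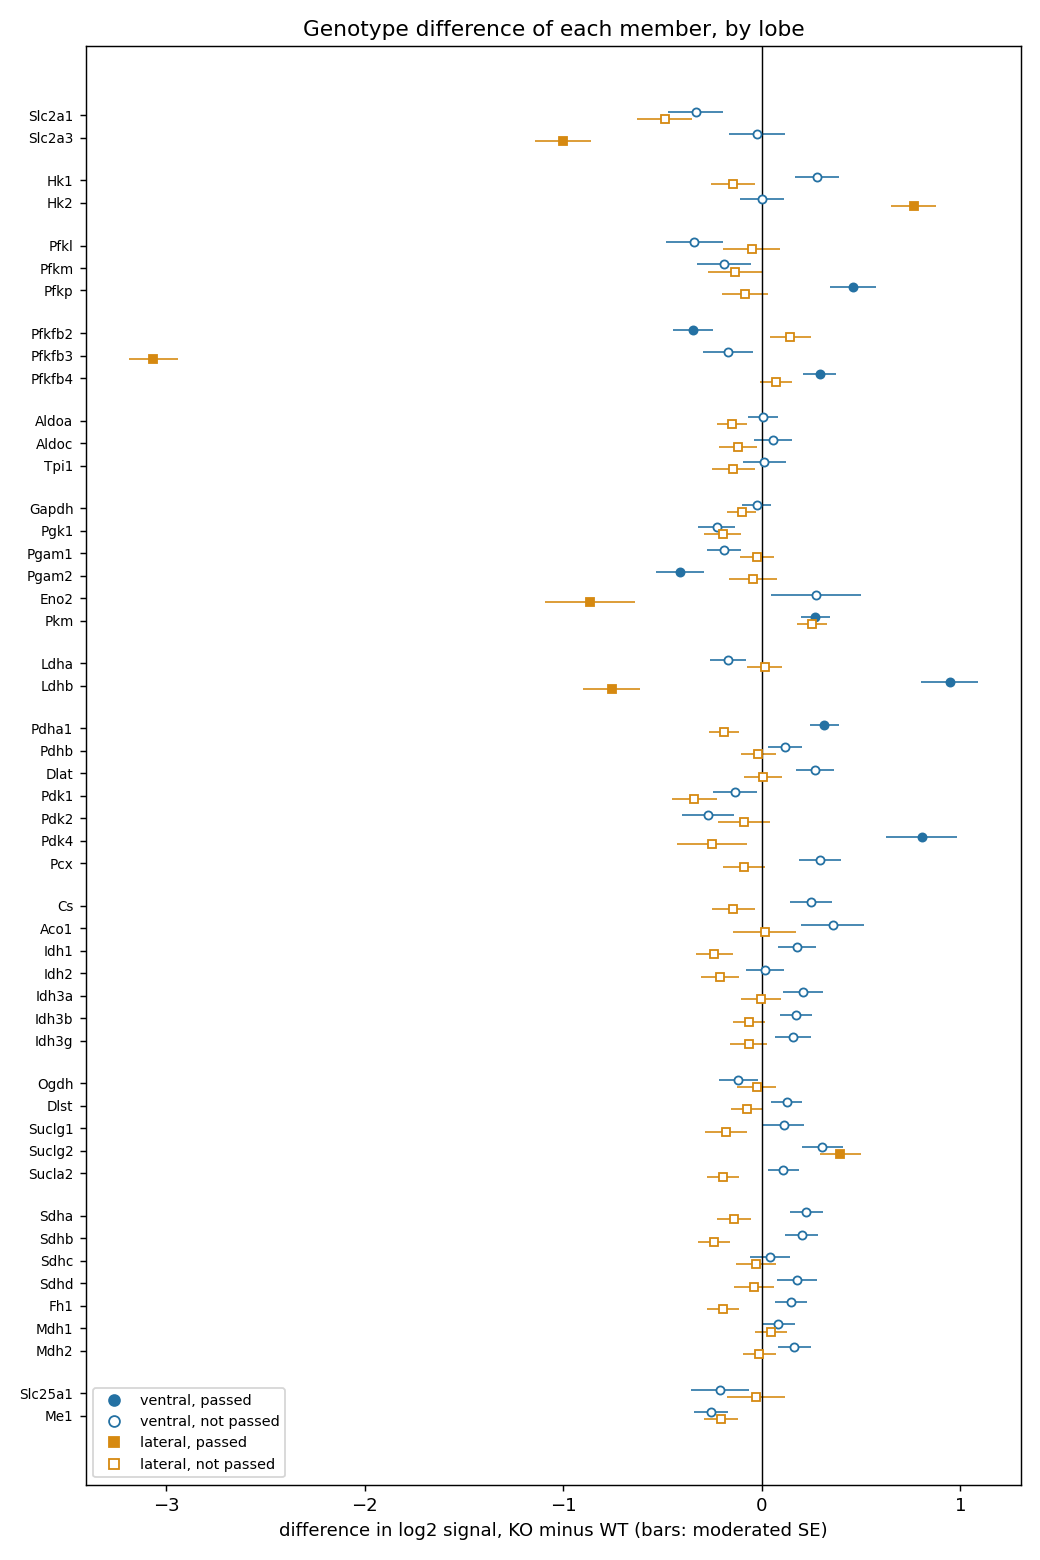
Difference in log2 signal, knockout (labelled knockout in the lateral lobe) minus wild type, for each of the 49 genes (horizontal axis), in ventral (circles) and lateral (squares) prostate. Rows are grouped by step from glucose uptake to malic enzyme, bars are moderated SE and filled symbols passed at an adjusted p of 0.05. The citrate cycle rows lie right of 0 in ventral prostate, Ogdh excepted, and Pfkfb3 at -3.06 stands apart in lateral prostate.

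Whether the genotype difference itself differed between the lobes was tested as the lateral change minus the ventral change. This passed for 9 of 49 members (18.4%), against 9.31% of all genes, and for 5 at an adjusted p under 0.01, against 3.97%. It lay above 0 for 13 members, against 52.8% of all genes and 42.3% of the brighter genes. It was positive for Hk2 (0.76 ± 0.16) and Pfkfb2 (0.49 ± 0.14) and negative for Pfkfb3 (-2.89 ± 0.18), Ldhb, Eno2 (-1.14 ± 0.32), Pdk4, Slc2a3 (-0.98 ± 0.20), Pdha1 and Sdhb (-0.44 ± 0.12, all SE), with limma adjusted p up to 0.0470. Positive calls were 2.8% and negative calls 6.51% of all genes. Sdhb, the iron-sulfur subunit of succinate dehydrogenase, read 10.38, 10.48 and 10.55 in ventral knockout, against 10.30, 10.26 and 10.25 in ventral wild type, and 9.99, 9.82 and 9.98 in the lateral arrays labelled knockout, against 10.11, 10.17 and 10.23 in lateral wild type. Neither lobe passed alone for Sdhb (limma adjusted p = 0.149 and 0.119), and the call was lost after quantile normalization over all arrays (-0.36; limma adjusted p = 0.0549). The count was 5 without KO_LP replicate 2, a setting for which no share of all genes is given. Pfkfb3, Ldhb, Slc2a3, Hk2 and Pdha1 passed with each of the 12 arrays left out. Eno2, Pfkfb2 and Sdhb passed with 3, 2 and 4 of the 12 left out, with limma adjusted p up to 0.0895, 0.105 and 0.0801 for the others.

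Levels in the lobes were set side by side without a test, because the arrays of each lobe look separately normalized. Sorted signals differed by a median of 0.388 log2 units over all 12 arrays, against 0.0493 within the ventral and 0.0786 within the lateral arrays, so lobe and normalization run cannot be told apart. The median lateral minus ventral difference of the 49 genes in wild type was -0.37 as deposited and 0.11 after quantile normalization over all arrays. Under both scalings, 4 members differed by at least 1 unit. Pfkfb3 was higher in lateral wild type by 2.56 as deposited and 3.03 after quantile normalization, Slc2a3 by 1.82 and 2.20, and Ldhb by 1.62 and 2.09. Hk2 was lower in lateral wild type, at -2.88 and -2.36. For these 4 genes the lateral arrays labelled knockout averaged 6.63, 6.56, 8.10 and 8.13, against 9.69, 7.56, 8.85 and 7.37 in lateral wild type, and the ventral wild-type arrays averaged 7.13, 5.73, 7.23 and 10.25 in the same order of genes. Each of the 4 lateral means therefore lay on the ventral side of its wild-type mean. These comparisons share the lateral wild-type arrays, so the pattern is a description.

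Other genes of the same pathways were read from lists chosen with earlier results of these data known. Beside the counts below, 5.88% of all genes rose and 3.2% fell in ventral prostate, and 1.62% rose and 3.42% fell in lateral prostate. Of 17 other glycolysis genes measured, 3 rose and 0 fell in ventral prostate, and 0 rose and 2 fell in lateral prostate. Bpgm, bisphosphoglycerate mutase, which diverts a glycolytic intermediate to 2,3-bisphosphoglycerate, read 9.26, 9.06 and 8.98 in the lateral arrays labelled knockout, against 11.54, 11.36 and 11.73 in lateral wild type. This fall of -2.44 ± 0.10 (SE; limma adjusted p = 5.59e-09) had no ventral counterpart, where Bpgm averaged 9.71 in knockout and 9.66 in wild type (difference 0.04; limma adjusted p = 0.844). Slc2a4 (GLUT4), the insulin-responsive transporter of muscle and fat, was the other lateral fall (-0.78 ± 0.081, SE; limma adjusted p = 5.23e-05). In that lobe 2 skeletal muscle markers fell (Acta1 and Tnnc2) and Myh4 rose. Myh4 averaged 4.57 in the arrays labelled knockout and 4.07, below the low-signal mark, in lateral wild type. Of 5 adipocyte markers 0 passed there in limma (2 were lower and 0 higher at an unadjusted p under 0.05), with Adipoq and Lep low in both lateral groups. Their part in the Slc2a4 value was not tested. In ventral prostate Slc2a10, a transporter of the GLUT family, rose by 1.14 ± 0.19 (SE), with its wild-type mean of 4.56 below the low-signal mark. Ldhd (0.44) and Tigar (0.36), a phosphatase that removes fructose 2,6-bisphosphate, rose as well, with limma adjusted p up to 0.0333 for these 3 genes.

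Of 13 genes of gluconeogenesis and glycogen, Ugp2 rose (0.43) and Fbp1 fell (-0.70, with both ventral groups below the low-signal mark, at 3.65 in knockout and 4.36 in wild type) in ventral prostate. In lateral prostate the glycogen phosphorylase Pygl fell by 1.10 (4.51 in the arrays labelled knockout, below the low-signal mark, against 5.61 in wild type) and the branching enzyme Gbe1 differed by -0.78, with limma adjusted p up to 0.00525. Of 7 pentose phosphate genes, H6pd rose in ventral prostate (0.36; limma adjusted p = 0.0207). In lateral prostate 0 of the 7 passed in limma, and 0 were under an unadjusted p of 0.05.

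Of 16 other genes around pyruvate and the citrate cycle, 2 rose and 2 fell in ventral prostate. Me3, a mitochondrial malic enzyme, rose by 0.80 ± 0.11 (SE; limma adjusted p = 4.10e-04), with its wild-type mean of 4.13 below the low-signal mark, and the pyruvate dehydrogenase phosphatase Pdp1 by 0.32. The phosphatase Pdp2 (-0.46) and the kinase Pdk3 (-0.32) fell. In lateral prostate Me3 fell (-0.40; limma adjusted p = 0.0479), the 1 call of this list there.

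Hypoxia-inducible genes outside glycolysis were split. Of 12, Ndrg1 (0.59) and Adm (0.38) rose in ventral knockout and Ddit4 (-0.73), P4ha2 (-0.49) and Vegfa (-0.48) fell, while Kdm3a rose in lateral prostate (0.37; limma adjusted p = 0.0299). Of 15 regulators of energy metabolism, Epas1, the hypoxia-inducible factor 2 alpha known from endothelium, followed Ldhb. It averaged 9.81 in ventral knockout and 9.16 in ventral wild type (0.65 ± 0.11, SE; limma adjusted p = 0.00206), and 8.98 in the lateral arrays labelled knockout and 9.47 in lateral wild type (-0.49 ± 0.11, SE; limma adjusted p = 0.0174). Hif1a differed by 0.004 in ventral and -0.085 in lateral prostate, and Tfam rose in ventral prostate (0.46; limma adjusted p = 0.0403). Of 6 endothelial markers, 0 passed in limma in either lobe, with 1 higher in ventral and 1 lower in lateral prostate at an unadjusted p under 0.05. Their mean was 5.89 to 6.14 in ventral knockout, against 5.72 to 5.94 in ventral wild type, and 5.96 to 6.06 in the lateral arrays labelled knockout, against 5.99 to 6.09 in lateral wild type.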

How the data were processed

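Per the labels, total RNA of ventral and lateral prostate was labelled with biotin. The deposited files hold log2 values per probe set, produced by the authors with RMA in Affymetrix Expression Console per the submitters' processing notes, which give no versions. RMA reports no detection call, so precision rests on the number of arrays. Replicate arrays correlated between 0.992 and 0.996 across 45101 probe sets.

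Of these probe sets, 34958 had 1 gene symbol, 932 several and 9211 none listed. Symbols were updated through Entrez identifiers (34754 matched, RefSeq table of GRCm38.p6), and the brightest probe set stood for each of 18194 genes. The tests used limma 3.58.1 (R 4.3.3) with 4 group means over 12 arrays (8 residual and 5.68 prior degrees of freedom) and Benjamini-Hochberg adjustment over all genes. SE and 95% intervals of differences are those of this moderated model. The steps were tested on simulated data. The members and lists were chosen with earlier results of these data known. Named genes were Med1, the members (each that passed with all its arrays), and up to 4 passing genes of smallest p per pathway list and comparison. P4ha2, Hif1a and single marker genes fall outside this rule and were chosen after their values were seen. Alternatives were the arrays of 1 lobe alone, a replicate block, other scalings, filters, probe set rules, variance models and thresholds, and each array left out. Leaving out WT_VP replicate 3 and KO_LP replicate 3 together, and the ventral values of each member without KO_VP replicate 3, were added after seeing the data.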

Additional observations from a re-analysis of the deposited data

Results flagged for a closer look

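The genotype difference differed between the lobes by limma's test of the difference itself for 9 of the 49 genes. The lateral change minus the ventral change was -2.89 for Pfkfb3, -1.70 for Ldhb, -1.14 for Eno2, -1.06 for Pdk4, -0.98 for Slc2a3, -0.51 for Pdha1, -0.44 for Sdhb, 0.49 for Pfkfb2 and 0.76 for Hk2.

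The same test passed for related genes named from the pathway lists. Among sugar transport, glycolysis and glycogen genes it was -2.48 for Bpgm, -1.17 for Slc2a10, -1.04 for Slc2a4, -1.03 for Pygl, -0.86 for Gbe1, -0.44 for Ugp2 and 0.61 for Gapdhs, whose genotype difference passed in neither lobe alone. Around pyruvate, malate and pentoses it was -1.20 for Me3, -0.53 for H6pd, -0.49 for Pdp1 and 0.75 for Pdp2. Among hypoxia-inducible genes and regulators it was -1.14 for Epas1, -0.68 for Ndrg1, -0.58 for Adm, 0.56 for Vegfa and 1.06 for Ddit4. Groups of 3 arrays are too small for a test of single outlying arrays.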

How the results depend on the processing

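The 8 ventral calls among the 49 genes became 3 with the ventral arrays alone, 3 with the replicate block, 5 after quantile normalization over all arrays, 4 when every probe set was tested, 1 at an adjusted p under 0.01 and 2 without both WT_VP replicate 3 and KO_LP replicate 3. With single arrays left out the count ranged from 2 to 7. The 6 lateral calls ranged from 4 to 9 over all alternatives, and from 4 to 7 with single arrays left out. The 9 calls for a difference between lobes became 5 without both arrays and 5 at an adjusted p under 0.01, and ranged from 5 to 10 with single arrays left out. Apart from the threshold of 0.01, the share of all genes that passed in each setting is not given, so these counts are not set against it. The causes were not tested, though a stricter threshold and fewer arrays lower counts by construction. The median lateral minus ventral level in wild type reversed, at -0.37 as deposited and 0.11 after quantile normalization over all arrays. Of 23 calls for single genes, 9 held under all alternatives at 0.05 (Pfkfb3, Slc2a3 and Hk2 in the lateral lobe and between lobes, and Ldhb in all 3 comparisons), and 0 of 23 reversed under any of them. In all, 135 of 493 single recomputations no longer passed. The replicate block brought the lateral count to 4 and that between lobes to 6. Same-numbered arrays did not deviate together, with correlations of residuals between -0.0071 and 0.116, so the numbers do not show pairs. With the dimmest 40% of genes left out, Eno2 and Pdk4 were not among the genes tested. No member was below the low-signal mark in any group.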
